A study of Homo sapiens with 12 samples.

Results

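The genes described here encode the histones, the proteins that package DNA into nucleosomes. They were the symbols of the standard histone nomenclature found in either count table. Of 27825 named genes in the table of the antagonist experiment, 83 were taken: 67 clustered replication genes (H1, H2A, H2B, H3 and H4), 10 variants (among them H1-10, H2AX, H2AJ, H2AZ1, H2AZ2, H3-3A, H3-3B, MACROH2A1 and MACROH2A2) and 6 other symbols that the name pattern caught. Those 6 were the pseudogenes H2BC20P, H2AC2P and H1-9P, the antisense transcript H1-10-AS1, and the germ-line linker genes H1-7 and H1-8. Of 904 genes in the table of the agonist experiment, 6 were histone genes, 5 clustered and 1 variant. Genes were classed by symbol alone, and whether each clustered gene is expressed with replication was not examined.

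RNA sequencing was done on U937, a human pro-monocytic leukemia cell line, in 12 libraries, 3 per group. In set 1, cells received an antagonist antibody to LILRB3, an inhibitory receptor of myeloid cells, or nonspecific IgG. In set 2, cells received an agonist antibody to the same receptor or a separate nonspecific IgG group. Per the labels, all 4 groups were first given interferon gamma at 50 ng/mL, and antibody treatment lasted 72 hours at a concentration written as 5 mg/mL, a unit left here as the labels give it. Each antibody was therefore compared with its own IgG libraries, on a background of interferon that, per the labels, the controls shared. The headers of the count columns carry IFN in set 1 but not in set 2. The labels do not tell whether the 3 libraries of a group were cultured separately, and p-values therefore measure no more than the spread among these libraries, possibly a technical one.

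Replication histone genes lie in clusters, mainly on chromosome 6 and chromosome 1, and are transcribed in S phase, when new chromatin is assembled on copied DNA. Their mRNAs lack introns and normally end just after a conserved stem-loop that the protein SLBP binds, without a poly(A) tail. Variant histone genes lie alone, are transcribed through the cell cycle, and end in a poly(A) tail after an AATAAA signal. H2AX is known to form both kinds of end. A library primed or captured through the poly(A) tail holds few stem-loop-ended transcripts, and the way RNA was selected for these libraries is not given in the sources used here.

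The annotated 3′ ends differed between the classes. Of the 67 clustered genes, 66 were found in GENCODE 29 (GRCh38), 55 of them on chromosome 6 and 11 on chromosome 1. A stem-loop was found in the annotated transcript of 28, and of the other 38, 32 had a model that covers only the coding sequence and cannot contain it. The commonest stem-loop, shared by 15 clustered genes, is the one printed below for H2BC21, H2AC6, H2AC19, H2BC15 and H3C10. H2BC5 and H4C8 carry other forms, shared by 4 clustered genes each, and H2AX was the only variant with a stem-loop. The windows run 5′ to 3′ on the transcript, with the stem-loop in capitals.
H2BC21 stem-loop: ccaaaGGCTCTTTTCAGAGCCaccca
H2AC6 stem-loop: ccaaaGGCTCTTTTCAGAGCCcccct
H2AC19 stem-loop: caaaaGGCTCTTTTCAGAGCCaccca
H2BC15 stem-loop: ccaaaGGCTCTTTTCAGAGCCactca
H3C10 stem-loop: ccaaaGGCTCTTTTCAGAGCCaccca
H2BC5 stem-loop: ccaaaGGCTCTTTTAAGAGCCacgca
H4C8 stem-loop: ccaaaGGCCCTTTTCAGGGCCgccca
H2AX stem-loop: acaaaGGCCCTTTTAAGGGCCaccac

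The poly(A) signal was found in both classes. AATAAA was found in the last 50 bases of a transcript in 6 of 10 variants and in 21 of 66 clustered genes. Among the 66 were the 32 with a coding-only model, which ends at the stop codon, so these shares cannot be compared. The windows below give it, in capitals, for H2AZ1 and H3-3B, which fell under the antagonist.
H2AZ1 poly(A) signal: tggtggataagttcAATAAAggtcatatcc
H3-3B poly(A) signal: atggatgagactaaAATAAAatttttgaag

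Some clustered genes were annotated with transcripts that run on past the stem-loop. In H2BC21 (chr1:149884459-149886652, minus strand), 1729 bases followed the stem-loop in its single transcript of 2194 bases, which held AATAAA in its last 50 bases. In H2AC6 (chr6:26124145-26139116, plus strand), 1128 bases followed it in the longest-running transcript. In H2AC19 (chr1:149851061-149851624, plus strand), 35 bases followed it, yet AATAAA lay within them. Of the 66 matched clustered genes, 22 had a transcript reaching 50 or more bases past the stem-loop, as had H2AX with 1044 bases.

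Promoters differ between the classes as well. RefSeq windows ran from 250 bases before to 50 bases after the transcription start (GRCh38.p14). They were taken by symbol for 64 clustered genes and 9 of the 10 variants. Among the 64 were H2AC25, H2BC26 and H4C16, symbols found in neither count table. A gene counted under another symbol would be missed this way, and H4C16 was not set against H4-16, a symbol of the set 1 table. Some of the 67 clustered genes had no window under their symbol, among them H4C1, H4C3, H2AC12, H3C11 and H3C12. The octamer ATTTGCAT, bound by POU2F1 (OCT1) at H2B genes, was searched on both strands. It was present in 39.7% of 68 clustered windows and 7.69% of 13 variant windows, against 1.77% of all 35116 windows. By gene, it was in 14 of 18 H2B genes and 11 of 16 H2A genes, but in 1 of 11 H3 genes and in none of 13 H4 and 6 H1 genes. CCAAT, searched on both strands, was in 85.3% of clustered, 69.2% of variant and 34.6% of all windows. These matches are descriptions of the letters and not of binding. The promoters of the 2 clustered genes that passed the test under the antagonist, H2BC21 and H2BC12, and of H2AZ1, a variant that fell in every setting tried, are given below on the gene's strand with octamers and CCAAT boxes in capitals (ATTGG and ATGCAAAT are the same motifs on the other strand).
H2BC21 promoter, chr1:149886633-149886932, minus strand: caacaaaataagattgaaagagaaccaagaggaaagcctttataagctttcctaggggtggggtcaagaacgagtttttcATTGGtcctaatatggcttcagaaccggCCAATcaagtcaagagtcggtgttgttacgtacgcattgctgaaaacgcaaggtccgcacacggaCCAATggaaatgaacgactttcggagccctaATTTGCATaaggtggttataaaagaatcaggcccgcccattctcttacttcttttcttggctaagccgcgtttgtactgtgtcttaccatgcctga
H2BC12 promoter, chr6:27146809-27147108, minus strand: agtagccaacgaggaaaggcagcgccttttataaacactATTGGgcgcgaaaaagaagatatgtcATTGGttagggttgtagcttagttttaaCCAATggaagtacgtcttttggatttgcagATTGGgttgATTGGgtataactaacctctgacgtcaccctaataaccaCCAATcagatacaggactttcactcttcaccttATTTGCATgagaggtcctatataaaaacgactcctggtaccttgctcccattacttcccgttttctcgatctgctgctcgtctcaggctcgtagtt
H2AZ1 promoter, chr4:99950226-99950525, minus strand: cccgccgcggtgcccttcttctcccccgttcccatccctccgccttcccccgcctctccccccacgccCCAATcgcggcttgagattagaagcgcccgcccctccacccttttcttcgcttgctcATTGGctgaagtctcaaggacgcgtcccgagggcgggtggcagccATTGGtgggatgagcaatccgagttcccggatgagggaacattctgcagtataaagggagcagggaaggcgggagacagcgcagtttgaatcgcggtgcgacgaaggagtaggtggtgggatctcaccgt

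The set 1 libraries held between 17053190 and 17790608 counts in the antagonist group and between 17155518 and 18833088 counts in the IgG group. The set 2 table lists a selected part of the genes, with totals of 3135972 to 3522203 listed counts in agonist libraries and 2764479 to 3321678 in IgG libraries, which are not library depths. LILRB3 itself had 5, 2 and 3 counts in antagonist libraries and 2, 1 and 2 in IgG libraries, and set 2 does not list it. The myeloid genes CTSG, ELANE, CEBPA, SPI1, CD33 and CD4 were well counted, whereas MPO had 43 and 25 summed counts in the antagonist and IgG groups. Among markers of other cell types, MS4A1, HBB and EPCAM had no counts, CD3E had 5 and 0 summed counts, and NKG7, PAX5 and CD79A were expressed in both groups. One library in each of 2 groups stood apart from its replicates. IgG library 1 of set 1 gave a chi-square over degrees of freedom of 10.4 and 18.5 against the other IgG libraries, which differed from each other by 4.32. Agonist library 1 had 24.9 and 26.6 against the other agonist libraries, which differed by 3.74. Histone genes that passed against their IgG are given with and without these libraries, whose numbers are names only. Markers, S phase genes and genes that make, process or place histones are given with these libraries only.

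Clustered replication genes contributed few reads. Over the 6 libraries of set 1, 14 of the 67 had no count, 18 had 1 to 9, 27 had 10 to 99 and 8 had 100 or more. A count of 0 over all 6 libraries allows up to 3 counts, a level of 0.0284 CPM, and covers counting error only. After edgeR's filter on low counts, 11 clustered genes, 9 variants and 2 of the other symbols were tested. MACROH2A2, the second macroH2A gene, had 1 and 6 summed counts in the antagonist and IgG groups and fell under the filter. Because the filter was passed on counts in these same libraries, the tested genes do not stand for all 67.

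Clustered genes with an annotated transcript past the stem-loop had a median of 19 counts over the 6 libraries, with 7 of 22 under 10 counts and 4 tested. The other 44 had a median of 6 counts, with 24 under 10 counts and 7 tested. Of these 44, 32 had a model of the coding sequence only, in which a transcript past the stem-loop could not be seen. The medians therefore do not compare transcripts that end at the stem-loop with those that run past it. The best counted of the first group was H2BC21 with 650 counts, and of the second H2BC12 with 1404 counts. H2BC12 (chr6:27146418-27146798, minus strand) has only a coding model of 381 bases in GENCODE 29, so its own 3′ end could not be examined.

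**Figure D1:**
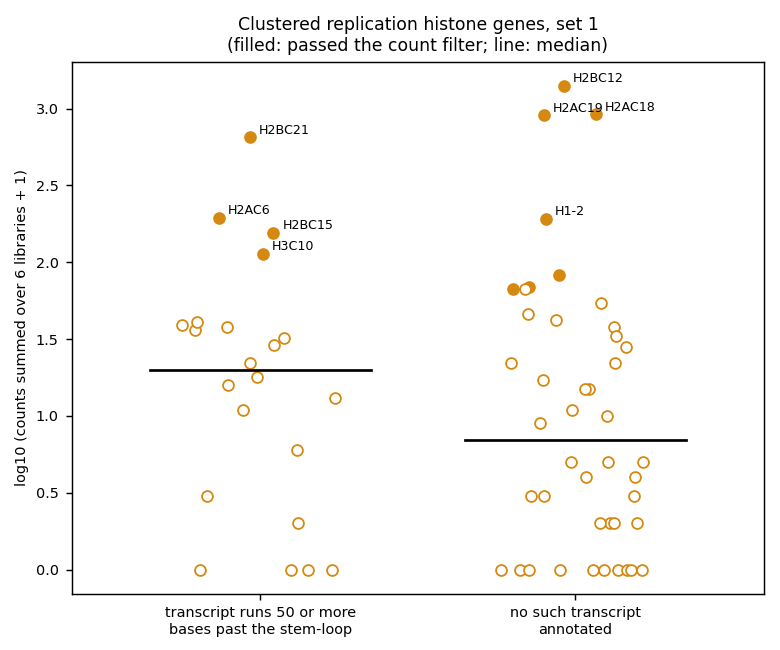
Counts of the 66 matched clustered genes summed over the 6 libraries of set 1, as log10 of the count plus 1; each circle is a gene, filled circles passed the count filter, and the line is the median. The median is 19 counts in 22 genes with a transcript reaching 50 or more bases past the stem-loop, and 6 in the other 44. Of those 44, 32 have a model of the coding sequence only, whose 3′ end is not annotated. Genes with over 100 counts occur in both columns.

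Per length of transcript, H2AZ1, H1-10, MACROH2A1, H3-3B and H2AX stood above every clustered gene. As CPM, counts scaled to a common library size by TMM, per kilobase of the longest coding transcript, H2AZ1 had a mean level of 145 in antagonist libraries and 211 in IgG libraries. H1-10 had 150.2 and 148, MACROH2A1 108 and 124, and H3-3B 89.0 and 110.3 in the antagonist and IgG groups. H2AX had 61.3 and 66.8, H2AZ2 31.6 and 38.4, and H3-3A 28.1 and 40.8. Among clustered genes, H2BC12 reached 31.1 and 39.0 over its coding model, while H2AC18, H2AC19 and H1-2 had 15.4 and 16.3, 15.0 and 15.2, and 2.52 and 3.08. H2BC21 had 3.39 and 2.19. The variant H2AJ, with 7.79 and 7.46, lay below H2AC18 and H2AC19. H2AC18 and H2AC19 did not differ beyond the spread of their libraries.

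Under the antagonist, variant histone genes fell or did not pass the test. Of the 9 tested variants, 5 were lower and 0 higher at an adjusted p of 0.05 (edgeR's quasi-likelihood test with Benjamini-Hochberg adjustment over 13778 genes), where 20.5% of all tested genes were lower and 15.6% higher. The count of 0 higher also held at an unadjusted p under 0.05 and with DESeq2. The median log2 fold change of the variants was -0.19, and that of all tested genes was -0.01. The 5 were both H2A.Z genes, both genes of histone H3.3, and MACROH2A1. Beside them, 3 of the 10 myeloid markers were lower, LYZ (-0.46), CTSG (-0.35) and CEBPE (-0.26), and 0 higher, and of the markers of other cells NKG7 was lower (-0.32) and PAX5 higher (0.29); their part in the histone values was not tested. In bulk libraries, fewer cells expressing a gene and less of its RNA per cell cannot be told apart.

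H2AZ1 and H2AZ2 encode the forms of H2A.Z, the variant that flanks active promoters. H2AZ1 (chr4:99948086-99950388, minus strand) had 132, 145 and 147 CPM in antagonist libraries, against 235, 205 and 179 CPM in IgG libraries. The groups did not overlap, and its log2 fold change was -0.54 ± 0.09 (SE, n = 3 per group; edgeR adjusted p = 0.000852). Without IgG library 1, the highest, the log2 fold change was -0.42 (edgeR adjusted p = 1.42e-05). H2AZ2 (chr7:44826791-44848083, minus strand) had 123, 123 and 114 CPM in antagonist libraries, against 162, 141 and 135 CPM in IgG libraries. All antagonist values again lay below all IgG values, with a log2 fold change of -0.29 ± 0.07 (edgeR adjusted p = 0.00906). It was -0.18 without IgG library 1 (adjusted p = 0.0133), and the call was lost with library totals in place of TMM (-0.21, adjusted p = 0.0573) and without antagonist library 3 (-0.25, adjusted p = 0.0573).

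H3-3A and H3-3B encode the same H3.3 protein, which is placed into chromatin outside replication. H3-3B (chr17:75776434-75785893, minus strand) had 235, 244 and 243 CPM in antagonist libraries, against 314, 298 and 283 CPM in IgG libraries. The antagonist values were close together and below every IgG value, with a log2 fold change of -0.31 ± 0.06 (edgeR adjusted p = 0.00197). It was -0.24 without IgG library 1 (adjusted p = 0.000444). H3-3A (chr1:226061851-226072001, plus strand) had 50.5, 63.7 and 42.5 CPM in antagonist libraries, against 89.1, 64.1 and 74.6 CPM in IgG libraries. Here the highest antagonist value nearly met the lowest IgG value, and the log2 fold change was -0.54 ± 0.17 (edgeR adjusted p = 0.0463). Without IgG library 1 it was -0.38 and did not pass (adjusted p = 0.257), nor did it without antagonist library 1 (-0.52, adjusted p = 0.102) or antagonist library 3 (-0.41, adjusted p = 0.0728). In all, 7 of 12 alternative settings lost the call. H3-3A shares 11.7% of its 50-base windows with the pseudogene H3F3AP4, so its counts are uncertain.

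MACROH2A1 encodes an H2A with a large extra domain, known from the inactive X chromosome and silenced genes. MACROH2A1 (chr5:135333900-135399914, minus strand) had 302, 301 and 305 CPM in antagonist libraries, against 352, 341 and 345 CPM in IgG libraries. Both groups were tight and separate, and the log2 fold change was -0.19 ± 0.05 (edgeR adjusted p = 0.0138). It was -0.16 without IgG library 1 (adjusted p = 0.0126), and -0.11 with library totals, which did not pass (adjusted p = 0.127). The call was also lost without IgG library 2 (-0.19, adjusted p = 0.0605), antagonist library 1 (-0.19, adjusted p = 0.0649) or antagonist library 3 (-0.20, adjusted p = 0.059). The unrelated gene C5orf66 overlaps it on the other strand and shares 26.1% of the 50-base windows of MACROH2A1. Because strand use is not given, the counts of MACROH2A1 are uncertain too.

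**Figure D2:**
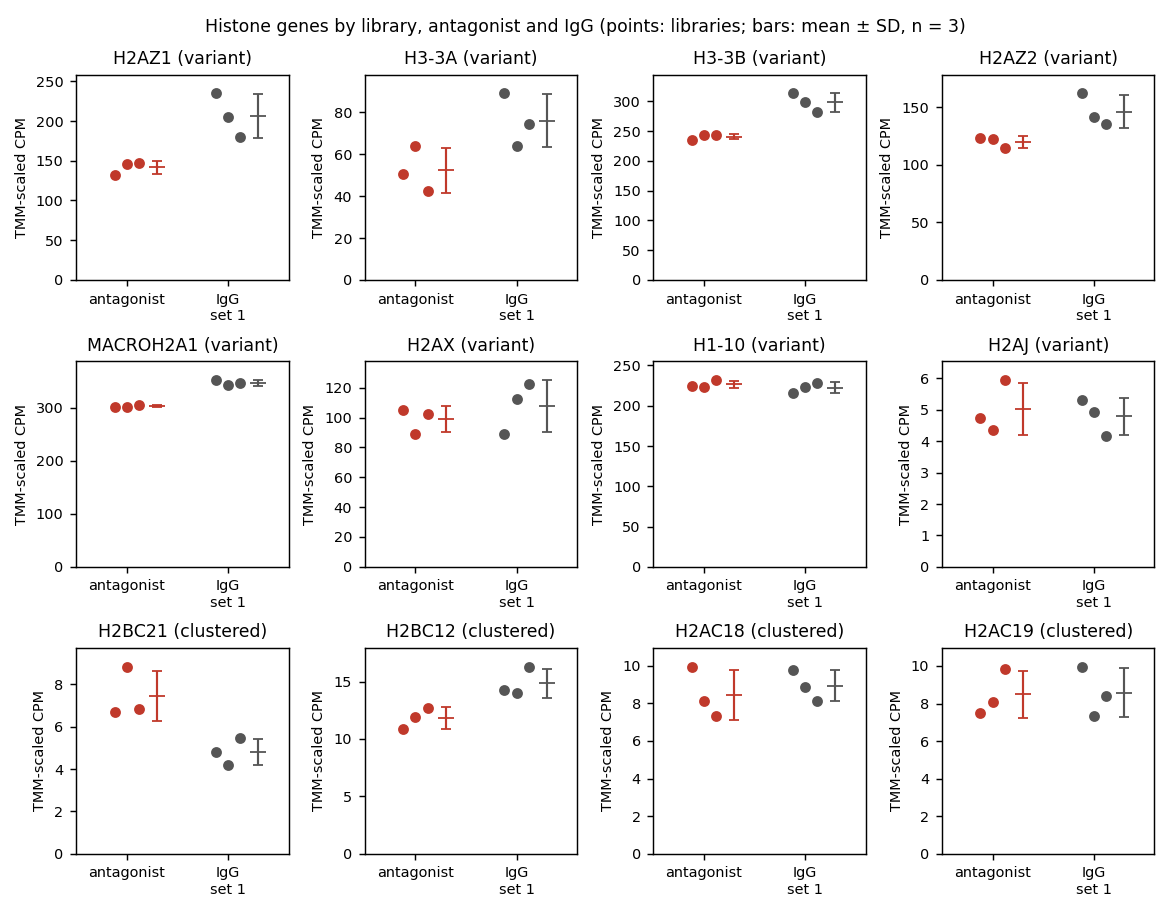
Level of 8 tested variants and 4 clustered genes in the antagonist and IgG libraries of set 1, in TMM-scaled CPM; points are libraries, bars the mean ± SD (n = 3 each). H2AZ1, H3-3B, H2AZ2 and MACROH2A1 lie lower in all antagonist libraries, the H1-10 groups overlap, and H2BC21 lies higher in all antagonist libraries.

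H2AX, H1-10 and H2AJ did not pass. H2AX, which is phosphorylated at DNA breaks, had 105, 89.0 and 103 CPM in antagonist libraries and 88.7, 113 and 122 CPM in IgG libraries. These values overlapped, with a log2 fold change of -0.12 ± 0.11 (edgeR adjusted p = 0.413), but without IgG library 1, the lowest of its group, it was -0.22 and passed (adjusted p = 0.00959). The linker gene H1-10 averaged 226 ± 4.72 and 223 ± 6.53 CPM (SD, n = 3 each) in the antagonist and IgG groups, with a log2 fold change of 0.02 ± 0.06. H2AJ, an H2A variant known to accumulate in senescent cells, averaged 5.02 ± 0.83 and 4.80 ± 0.59 CPM, with a log2 fold change of 0.06 ± 0.17.

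Of the 11 tested clustered replication genes, H2BC21 was higher under the antagonist, H2BC12 was lower and the other 9 did not pass. The log2 fold change was negative in 9 of the 11 and positive in 2, with a median of -0.08, where 51.4% of all tested genes had a negative value. With library totals in place of TMM, 7 of the 11 were negative, and so were 41.6% of all genes. Over all 22 tested histone genes 7 passed in either direction (31.8%), where 36.1% of all tested genes passed. The groups did not overlap in 10 of the 22, and 49% of all tested genes had groups that did not overlap.

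H2BC21, which encodes an H2B and was described above for its long transcript, was the clustered gene that rose. It had 6.68, 8.82 and 6.83 CPM in antagonist libraries (117, 160 and 124 counts), against 4.79, 4.21 and 5.45 CPM in IgG libraries (89, 71 and 89 counts). Every antagonist value exceeded every IgG value, and the log2 fold change was 0.63 ± 0.16 (edgeR adjusted p = 0.00927). It was 0.65 without IgG library 1 (adjusted p = 0.0049) and passed in all 12 alternative settings. H2BC12, also an H2B gene, was the one that fell. It had 10.9, 11.9 and 12.7 CPM in antagonist libraries, against 14.3, 14.0 and 16.3 CPM in IgG libraries. The groups were separate, with a log2 fold change of -0.33 ± 0.11 (edgeR adjusted p = 0.032) and -0.33 without IgG library 1 (adjusted p = 0.0284), but 7 of 12 alternative settings lost the call, among them DESeq2 (-0.31, adjusted p = 0.0663). Leaving out IgG library 2 (-0.35), IgG library 3 (-0.25), antagonist library 1 (-0.27) or antagonist library 2 (-0.33) also ended it, with adjusted p between 0.0539 and 0.13. H2BC12 shares 74.1% of its 50-base windows with other genes, most of all H2BFS, so its counts depend on how shared reads were assigned.

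The other 9 tested clustered genes did not pass. H2AC18 and H2AC19, which encode H2A and share nearly all of their sequence (100% and 97.1% of 50-base windows), had log2 fold changes of -0.08 ± 0.14 and -0.02 ± 0.15, and reads of the 2 cannot be separated with certainty. H2AC6, another H2A gene, had a log2 fold change of -0.09 ± 0.23, H2BC15 -0.03 ± 0.24 and H3C10 -0.08 ± 0.29. The linker gene H1-2 had 31, 29 and 27 counts in antagonist libraries and 50, 30 and 24 counts in IgG libraries, and its log2 fold change of -0.30 ± 0.27 became 0.02 without IgG library 1. H2BC5 had 12, 9 and 10 counts in antagonist libraries and 21, 18 and 12 counts in IgG libraries, with a log2 fold change of -0.76 ± 0.34 that did not pass (edgeR adjusted p = 0.102). H2AC17 had -0.47 ± 0.52 and shares 86.3% of its windows with the overlapping gene annotated as HIST1H3J. H2BC17 had 11, 19 and 13 counts in antagonist libraries and 4, 16 and 3 counts in IgG libraries, with a log2 fold change of 0.83 ± 0.54 (adjusted p = 0.244). Without IgG library 2, its highest control, this became 1.97 and passed (adjusted p = 0.0218).

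**Figure D3:**
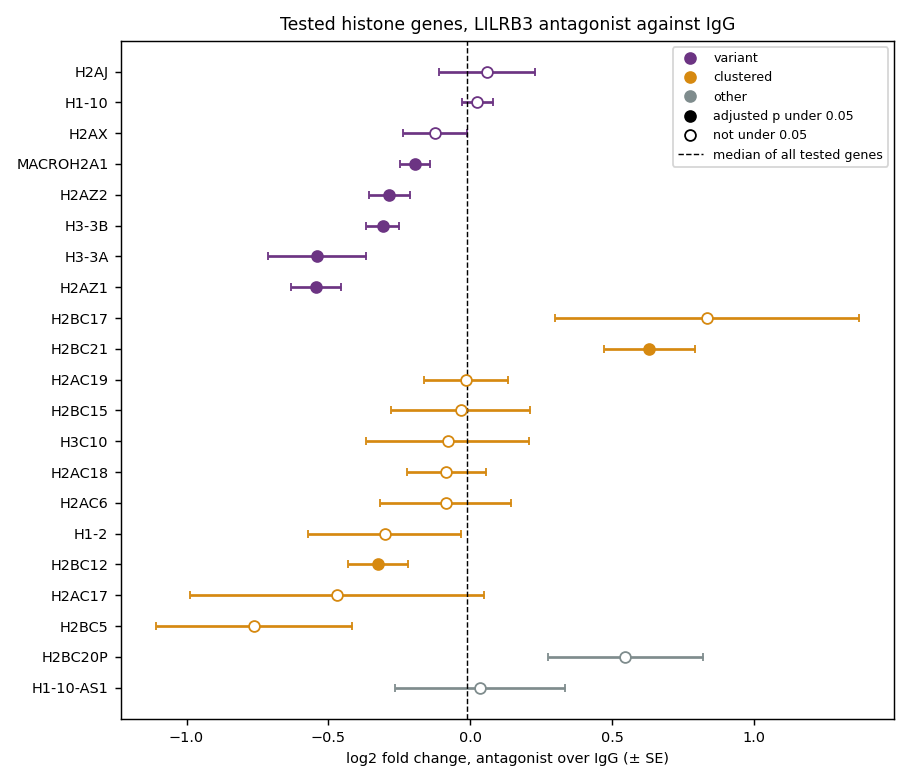
Log2 fold change of 21 tested histone genes, antagonist over IgG, with its SE; filled circles passed an adjusted p of 0.05 in edgeR's test, and the dashed line is the median of all tested genes, -0.01. The 5 filled variants lie left of the line, and of the 2 filled clustered genes H2BC21 lies right and H2BC12 left.

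Of the other symbols, the pseudogene H2BC20P had 38, 40 and 38 counts in antagonist libraries and 17, 32 and 27 counts in IgG libraries, with a log2 fold change of 0.55 ± 0.27 that did not pass (edgeR adjusted p = 0.136). H1-10-AS1, antisense to H1-10, had a log2 fold change of 0.03 ± 0.30. H1-7 had 33 and 17 summed counts in the antagonist and IgG groups, and H1-8, H1-9P and H2AC2P had 3 or fewer counts in all.

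A further 24 clustered genes were under the filter with 10 to 66 counts over the 6 libraries. The H4 genes among them were H4C3, H4C5, H4C8, H4C9, H4C11, H4C12, H4C14 and H4C15, and the H3 genes H3C1, H3C4, H3C13, H3C14 and H3C15. The H2A genes were H2AC11, H2AC13, H2AC14, H2AC15 and H2AC20, the H2B genes H2BC4, H2BC9, H2BC11, H2BC13 and H2BC18, and the linker gene was H1-4. Their summed count was larger in the antagonist group for 16 and in the IgG group for 8, and together they had 370 counts of 52353844 in antagonist libraries and 311 of 53269436 in IgG libraries. How other genes with as few counts split was not counted, so the 16 and 8 are a description only. The largest was H4C12 with 29 and 37 counts in the antagonist and IgG groups, followed by H2AC15 with 31 and 22. H4C12 shares 100% of its 50-base windows with H4C11, and H2AC15 100% with the overlapping gene H2BC15. H3C14 and H3C15 share 100% with each other, so the counts of these genes are uncertain. In a fit without the filter, 0 of the 24 passed (edgeR's quasi-likelihood test with Benjamini-Hochberg adjustment), and 0 had an unadjusted p under 0.05. The lowest p was that of H2BC18, 0.119 (adjusted p = 0.291), with a log2 fold change of 0.97 ± 0.62.

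Summed over a class, the clustered genes made up 51.1, 54.6 and 52.5 CPM of all named counts in antagonist libraries and 55.2, 48.9 and 48.7 in IgG libraries. These sums overlapped, with means of 52.7 ± 1.77 in the antagonist and 50.9 ± 3.67 in the IgG group (SD, n = 3 each), and the sign of the difference, 1.81, turned to -1.33 per TMM effective library size. The variants made up 1354, 1383 and 1365 CPM in antagonist libraries and 1583, 1490 and 1441 in IgG libraries, with no overlap. Within a library, where scaling has no part, there were 3.77, 3.95 and 3.85 clustered counts per 100 variant counts in antagonist libraries and 3.49, 3.28 and 3.38 in IgG libraries. This ratio was higher in all 3 antagonist libraries, with means of 3.86 ± 0.0887 in the antagonist and 3.38 ± 0.103 in the IgG group.

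Genes that make, process and place histones were examined beside the histone genes themselves. Of 25 genes for histone mRNA synthesis and 3′ end processing, 11 fell and 2 rose under the antagonist, where 20.5% of all tested genes fell and 15.6% rose, and the median log2 fold change was -0.16. SLBP, the stem-loop binding protein, averaged 63.5 ± 1.83 CPM in antagonist libraries and 80.5 ± 2.61 CPM in IgG libraries (SD, n = 3 each), a log2 fold change of -0.34 ± 0.06 (edgeR adjusted p = 0.00124). NPAT, which switches on the clustered genes, had a log2 fold change of -0.16 ± 0.14 and did not pass (adjusted p = 0.395). The Sm proteins SNRPF, SNRPG and SNRPB, which the U7 particle of histone mRNA processing shares with splicing particles, fell by 0.53, 0.51 and 0.37 on the log2 scale. TENT4A, a terminal nucleotidyltransferase, rose by 0.42 ± 0.07.

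Of 20 chaperones and importers of newly made histones, 5 fell and 1 rose, shares near or under the 20.5% and 15.6% of all tested genes, and the median log2 fold change was -0.10. HAT1, which acetylates new H4, had a log2 fold change of -0.41 ± 0.07, the H3-H4 chaperone ASF1A -0.40 ± 0.12 and the H2A-H2B chaperone NAP1L1 -0.39 ± 0.06, whereas CDAN1, a partner of ASF1, had 0.28 ± 0.09. Of 19 chaperones and exchangers of variants, 7 fell and 4 rose, against the same 20.5% and 15.6%, with a median of -0.12. EP400 and SRCAP, remodelers that exchange H2A.Z into nucleosomes, rose by 0.77 ± 0.07 and 0.77 ± 0.08, and UBN2, of the HIRA complex that places H3.3, rose by 0.59 ± 0.06. ZNHIT1, a small subunit of the SRCAP complex, had a log2 fold change of -0.37 ± 0.06. Of 29 S phase genes, SLBP among them, 16 fell and 1 rose, again beside 20.5% and 15.6% of all tested genes, at a median of -0.26. The replication genes RFC2, CDC6, FEN1 and PCNA had log2 fold changes of -0.39, -0.38, -0.38 and -0.36. The part of S phase cells in the histone values was not tested.

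In set 2, the agonist was compared with its own IgG libraries over listed genes only. These genes were selected on the same libraries, 99.9% of the 904 passed the test (55.6% higher and 44.2% lower), and 97.6% had groups that did not overlap. The calls are therefore no independent evidence, and the zero point of the fold changes is uncertain. Of the 5 listed clustered genes, 4 were higher and 0 lower, and the single listed variant, H2AX, was lower. NKG7, the one listed marker of other cells, was higher (0.22, edgeR adjusted p = 0.00706), and its part in the histone values was not tested. Levels are given as CPM of listed counts, which cannot be set beside the levels of set 1.

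H2BC21 had 598, 675 and 671 CPM in agonist libraries, against 523, 455 and 513 CPM in IgG libraries. The groups were separate, with a log2 fold change of 0.38 ± 0.08 (edgeR adjusted p = 0.000733). H2AC6 had 244, 275 and 235 CPM in agonist libraries, against 172, 173 and 187 CPM in IgG libraries, again separate, with a log2 fold change of 0.50 ± 0.09 (adjusted p = 0.000501). H1-2 had 299.5, 211 and 267 CPM in agonist libraries, against 187, 161 and 159.7 CPM in IgG libraries. The groups were separate, and the log2 fold change was 0.62 ± 0.12 (adjusted p = 0.000733). H2AC19 had 212, 199.7 and 183 CPM in agonist libraries, against 121, 162 and 143 CPM in IgG libraries, without overlap and with a log2 fold change of 0.48 ± 0.11 (adjusted p = 0.00173). Without agonist library 1, all 4 passed, with log2 fold changes of 0.44 for H2BC21, 0.52 for H2AC6, 0.50 for H1-2 and 0.43 for H2AC19. With the trend of fold change over transcript length removed, H2AC19 had 0.12 and no longer passed (adjusted p = 0.334), while H2BC21 had 0.23, H2AC6 0.33 and H1-2 0.28 and passed.

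H2AX had 1386, 1155 and 1259 CPM in agonist libraries, against 1636, 1663 and 1531 CPM in IgG libraries. Every agonist value was below every IgG value, with a log2 fold change of -0.35 ± 0.07 (edgeR adjusted p = 0.000728), and -0.42 without agonist library 1. It was -0.53 with the length trend removed (adjusted p = 5.55e-05), and -0.70 with length and GC trends removed (adjusted p = 8.17e-06). H3C4, an H3 gene with a coding-only model, had 21, 38 and 18 counts in agonist libraries and 1, 0 and 22 counts in IgG libraries. It shares 100% of its windows with AL031777.3, an overlapping gene on the same strand, so its counts cannot be assigned to it with certainty. IgG library 3 lay within the agonist range, and the log2 fold change of 1.64 ± 0.76 did not pass (edgeR adjusted p = 0.0518). Without that library it was 5.27 and passed (adjusted p = 0.00177), and without agonist library 3 it was 1.85 and passed (adjusted p = 0.0471).

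**Figure D4:**
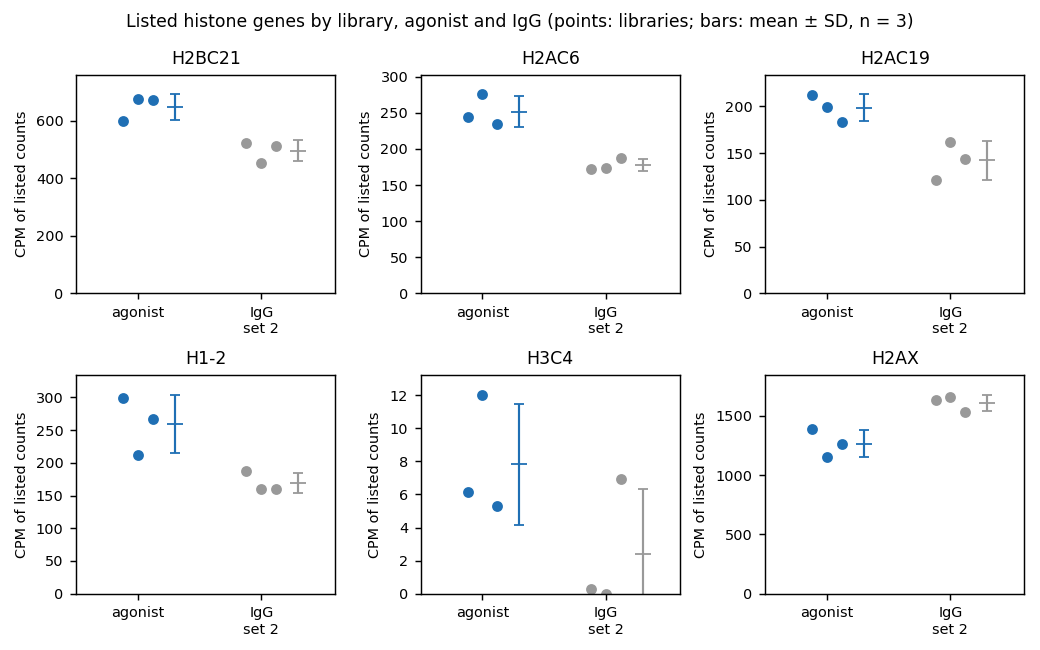
Level of the 6 histone genes listed for set 2 in agonist and IgG libraries, as CPM of listed counts; points are libraries, bars the mean ± SD (n = 3 each), and the bar of H3C4 in IgG is drawn only down to 0. H2BC21, H2AC6, H2AC19 and H1-2 lie higher and H2AX lower in all agonist libraries, while the H3C4 groups overlap.

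The S phase genes in the set 2 table were all lower, whereas the 4 clustered genes were higher. Of the 29 S phase genes 9 were present, 0 higher and 9 lower, in a table where 44.2% of the genes were lower and 55.6% higher, and their median log2 fold change was -0.37. The largest changes were E2F8 at -0.81 ± 0.13, UHRF1 at -0.49 ± 0.09, ATAD2 at -0.40 ± 0.07 and CDC6 at -0.39 ± 0.08. All 4 listed chaperones of new histones were lower, beside the same 44.2%, among them ASF1B at -0.45 ± 0.07. UPF1, a helicase that takes part in histone mRNA decay, was the only processing gene listed, at -0.32 ± 0.06, and no variant chaperone was listed. SLBP and NPAT were not on the list.

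The effects of the 2 antibodies were compared directly in 1 model with a set by treatment interaction, fitted on the 902 genes in both tables, of which 58.8% passed. Because the set 2 genes were selected on their own libraries, their agonist effects tend to be large beforehand, which favors a difference. Of the 6 histone genes 2 passed. The antagonist effect on H1-2 was lower than the agonist effect by a log2 difference of -0.86 ± 0.30 (edgeR adjusted p = 0.0222), which fell short without IgG library 1 of set 1 (-0.55, adjusted p = 0.147) or antagonist library 3 (-0.81, adjusted p = 0.0521). For H2AC6 the difference was -0.53 ± 0.22 (adjusted p = 0.0456), and 8 of 14 alternative settings lost it. Among these were 7 settings with 1 library left out: IgG library 2 (-0.48) or 3 (-0.52) of set 1, antagonist library 1 (-0.42) or 2 (-0.59), agonist library 2 (-0.46), and IgG library 1 (-0.50) or 2 (-0.51) of set 2. Without agonist library 1 both passed narrowly (-0.75, adjusted p = 0.0449, and -0.55, adjusted p = 0.049). The differences for H2AC19 (-0.44 ± 0.20, adjusted p = 0.065), H2AX (0.28 ± 0.13, adjusted p = 0.0699), H2BC21 (0.31 ± 0.17, adjusted p = 0.115) and H3C4 (-0.82 ± 1.89, adjusted p = 0.724) did not pass. H2AC19 passed without IgG library 2 of set 1 (-0.54), antagonist library 3 (-0.56) or IgG library 2 of set 2 (-0.54). H2AX passed without IgG library 3 of set 1 (0.37), antagonist library 2 (0.36) or agonist library 1 (0.36). H2BC21 was called higher under each antibody against its own IgG, but the set 2 call is no independent evidence and its zero point is uncertain. A difference between those changes was not shown, which does not make them equal.

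Set beside H2AX in the same library, the listed clustered genes could be followed across all 4 groups without a library total. H2AX was itself lower under the agonist (-0.35), which raises the agonist ratios over those of their IgG libraries by as much. H2BC21 had 7.64 ± 1.98 counts per 100 H2AX counts in antagonist libraries and 4.53 ± 0.83 in their IgG libraries, and 51.6 ± 7.81 in agonist libraries and 30.9 ± 3.19 in their IgG libraries (SD, n = 3 each). H2AC6 had 1.82 ± 0.381 and 1.78 ± 0.169 in antagonist and IgG libraries of set 1, and 20.02 ± 3.35 and 11.03 ± 1.01 in agonist and IgG libraries of set 2. H1-2 had 1.64 ± 0.178 and 1.94 ± 0.965 in antagonist and IgG libraries, and 20.4 ± 1.81 and 10.5 ± 0.893 in agonist and IgG libraries. H2AC19 had 8.61 ± 1.31 and 8.20 ± 2.61 in antagonist and IgG libraries, and 15.7 ± 1.42 and 8.84 ± 1.26 in agonist and IgG libraries. H2AC19 shares 97.1% of its 50-base windows with H2AC18, which set 2 does not list, so its counts depend on how shared reads were assigned. The IgG groups of the 2 sets, which the labels describe alike, thus lay far apart for H2BC21, H2AC6 and H1-2 and close together for H2AC19. The sets differ in table and in column headers, which carry IFN in set 1 only. A difference of handling between the sets cannot be told apart from one of the cells.

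**Figure D5:**
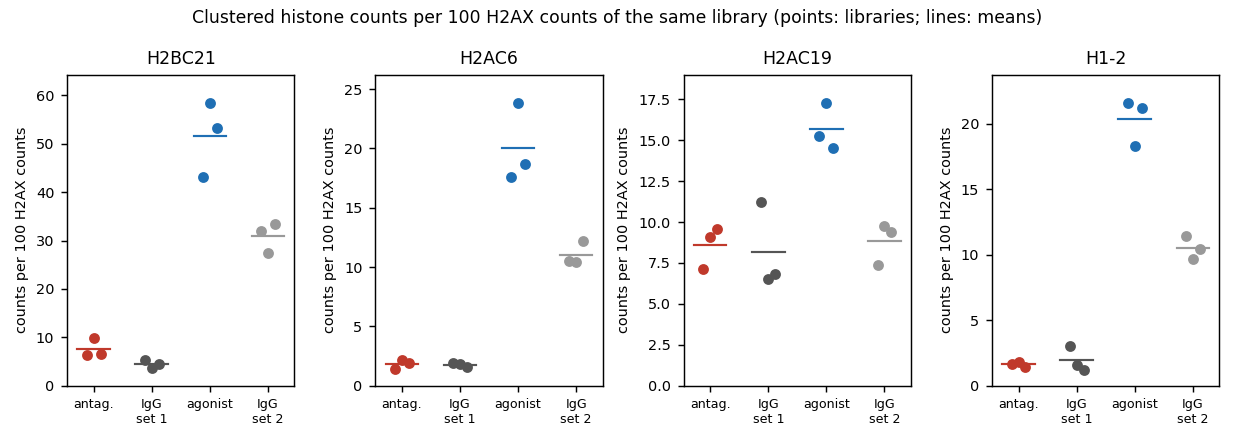
Counts of 4 clustered genes per 100 H2AX counts of the same library in the antagonist, IgG set 1, agonist and IgG set 2 groups; points are libraries and lines the mean of 3. For H2BC21, H2AC6 and H1-2 both groups of set 2 lie above both groups of set 1, and all 4 genes lie higher in agonist libraries than in their IgG libraries.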

How the data were processed

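RNA of 12 U937 libraries was sequenced in 4 groups of 3. The authors deposited raw counts, as whole numbers of reads per gene, in a table per set. The submitters' processing notes name HISAT2, Cufflinks and build hg38. Not given in the sources used here were versions, the counting program, strand use and RNA selection. Without strand, a gene and its antisense partner cannot be told apart. Columns carry the group name and no replicate number, so libraries were assigned to groups only. Of 28395 rows in set 1, 570 had no gene name. They held 0.0981% to 0.105% of the counts of antagonist libraries and 0.0678% to 0.0767% of those of IgG libraries, and were left out. The set 2 table lists 904 genes, selected on these libraries.

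Counts were tested with edgeR 4.0.16 (R 4.3.3): filterByExpr at its default settings (minimum count 10, minimum total 15), TMM scaling, the robust quasi-likelihood test and Benjamini-Hochberg adjustment over the whole table, with a threshold of 0.05. Standard errors came from the fold change and the F statistic. CPM values are TMM-scaled in set 1 and in set 2. The difference between antibodies was the interaction over the 902 shared genes, each set scaled on its own. Levels, class sums and ratios have no test. DESeq2 1.42.0, other scalings, no filter, removal of length trends and leaving out each library were alternatives. On simulated counts for the antagonist comparison over 13777 genes, 98% of changes of 1 and 52% of changes of 0.5 on the log2 scale were recovered. Changes were put only into genes above a floor of mean counts, with the same spread for all genes. H3C10, H2BC5, H2AC17, H2BC17 and the clustered genes under the filter lay below that floor, so these shares do not hold for them.

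Transcripts came from GENCODE 29 and promoters from RefSeq (GRCh38.p14); 78 of 83 symbols matched by gene ID, 4 by an older symbol and 1, H4-16, did not match. Transcripts were searched for the stem-loop and, in their last 50 bases, AATAAA. Every member that passed the filter or was listed in set 2 was named, as were members under the filter with at least 10 counts over set 1. From each context list up to 4 passing genes of the largest change with a mean of at least 5 CPM were named, plus SLBP and NPAT. A tested variant and some marker genes are included in the counts and sums but are not reported here. The members, lists and tests were chosen with earlier results of these data known. With 3 libraries a group, an exact permutation test of 1 value cannot go below 0.1 and was not used.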

Additional observations from a re-analysis of the deposited data

Results flagged for a closer look

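For the histone genes that both tables hold, the difference between the antibody effects was tested by an interaction, and 2 genes passed. For H1-2 the antagonist effect minus the agonist effect was -0.86 on the log2 scale (edgeR adjusted p = 0.0222). For H2AC6 it was -0.53 (edgeR adjusted p = 0.0456). In set 1 both genes had 50 or fewer counts in each library, and the set 2 fold changes have an uncertain zero point. The set 2 genes were also selected on their own libraries, which favors a difference in advance. Of the 902 shared genes, 58.8% passed.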

How the results depend on the processing

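No result changed direction while called under any alternative run. No paired analysis was possible because the columns carry no replicate numbers, and the planned replicate block was not run. In set 1, the total of 4978 calls lay between 3143 and 5075 when single libraries were left out, with the low values without antagonist library 1 (3143) and without antagonist library 3 (3190). Higher calls were 43.1% of all calls with TMM and 65.4% with library totals, which moved the median of all genes by 0.08. The variants called lower numbered 5 and became 2 with library totals, and 2 to 5 with single libraries left out (3 without antagonist library 1 and 2 without antagonist library 3). The clustered genes called lower numbered 1 and became 0 with DESeq2, with library totals, with the length trend removed, and without IgG library 2 or 3 or antagonist library 1 or 2. The clustered genes called higher numbered 1, and 2 without IgG library 2. H2AZ1, H3-3B and H2BC21 passed in all 12 alternatives, with log2 fold changes of -0.63 to -0.42, -0.34 to -0.23 and 0.49 to 0.73, and H2AZ2 in 10, MACROH2A1 in 8 and H3-3A and H2BC12 in 5. In set 2, the 4 members called higher became 2 when length and GC trends were removed, an alternative chosen after seeing the data that left H1-2 at 0.27 and H2AC19 at 0.04, and numbered 4 to 5 with single libraries left out. The members whose antibody effects differed numbered 2, and 1 to 3 with single libraries left out, with 1 without IgG library 1 or antagonist library 1 of set 1, or without agonist library 2 or IgG library 1 of set 2. Per effective library size, the summed clustered level differed by -1.33 CPM, antagonist minus IgG, where it was 1.81 per raw total (0.704 to 3.93 with single libraries left out), so its sign depends on the scaling. The variant sum differed by -225 per effective size and -137 per raw total (-169 to -98.4 with single libraries left out). Most clustered genes had under 100 counts in all of set 1, which limits the precision of their values.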
